A study of Homo sapiens with 12 samples.

Results

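The mTOR pathway regulators described here are 10 genes, taken by symbol from a list of parts of the mTOR complexes and of the brakes that act on them: MTOR, RPTOR, RICTOR, AKT1S1, DEPTOR, DDIT4, SESN1, SESN2, TSC1 and TSC2. They are 10 of the 58288 gene IDs in the count table, the rule for choosing them uses their symbols and no measured value, and all 10 passed the filter on low counts. RNA was sequenced from HK2, a human cell line established from kidney proximal tubule and immortalized with papillomavirus E6 and E7 genes. All 4 groups carried a short hairpin RNA (shRNA), which was directed against FLCN mRNA in the knockdown groups and was a nontargeting control in the nontarget groups. Cells with either shRNA were taken short-term, at fewer than 30 passages, and long-term, at more than 120 by the labels (the study's methods set a somewhat smaller limit for long-term), each group in 3 libraries labelled as biological replicates. The cells with stable shRNA were kept as clones whose identity is not given per library, so an effect of the shRNA or of culture time and one of the clone cannot be told apart. The replicates are described as biological repeats without further detail of the cultures, and p-values measure the spread between these libraries.

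The kinase mTOR works in a pair of complexes. In mTORC1 it is bound to RPTOR, drives protein synthesis and cell growth, and holds back autophagy at the lysosome when amino acids and growth factors are present. In mTORC2 it is bound to RICTOR and phosphorylates AKT and SGK kinases. The TSC1-TSC2 complex switches off RHEB, the small GTPase that activates mTORC1, while amino acids act through the Rag GTPases, for which FLCN, the folliculin protein lost in Birt-Hogg-Dubé syndrome, is a GTPase-activating partner. Tumours of the kidney arise when TSC1, TSC2 or FLCN is lost, and proximal tubule cells use mTORC1 to match growth and transport to nutrient supply.

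Levels are given as CPM, a gene's counts relative to the total of its library after TMM scaling (edgeR's correction for library composition), in the order of replicates 1 to 3. FLCN itself was read at 12.7, 16.7 and 16.5 CPM in short-term nontarget and 5.95, 6.58 and 5.66 CPM in short-term knockdown libraries. In the long-term groups it was read at 9.92, 11.9 and 12.2 CPM without and 6.7, 6.31 and 7.97 CPM with the FLCN shRNA. FLCN was thus lower in every knockdown library than in the nontarget libraries of the same culture time, with a log2 fold change of −1.33 short-term (SE 0.179, adjusted p = 0.000112) and −0.70 long-term (SE 0.178, adjusted p = 0.00611). Library totals were 5825779 to 8991051 counts. Of 10 markers of proximal tubule, 5 passed the filter, among them PAX8, CDH6, GGT1 and SLC5A2. LRP2, the endocytic receptor megalin, had no counts, and CUBN, SLC34A1, AQP1 and ANPEP were at means of at most 0.442 CPM. The summed CPM of the 10 markers was 383 to 406, 515 to 588, 613 to 751 and 1840 to 2090 in short-term nontarget, short-term knockdown, long-term nontarget and long-term knockdown libraries, of which the cadherin CDH6 made up a mean of 67.7, 136, 244 and 1620 CPM. The summed markers of fibroblasts were at 13.9 to 41.2 CPM in all libraries, mostly COL1A1, while PDGFRB, a receptor of fibroblasts and pericytes, was at a mean of 3.99, 2.19, 7.41 and 0.658 CPM in the 4 groups in the same order. By contrast, the summed CPM of markers of other nephron segments, endothelium and leukocytes was at most 0.708 in any library. In bulk RNA, fewer cells that express a gene and less of its RNA in each cell cannot be told apart.

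The libraries numbered 3 stood apart from their group in short-term knockdown, long-term nontarget and long-term knockdown. Their chi-square per degree of freedom against a library of the same group was 6.32 to 11.9, against 2.07 to 4.93 for all other pairs. In those 3 libraries, transcripts below the lower quartile of GC content (41.9%) deviated from the other libraries of the group by a median log2 difference of −0.22 to −0.17, and those above the upper quartile (56.4%) by 0.32 to 0.40. Long-term nontarget replicate 1 deviated the other way, by 0.25 and −0.28. Several regulators differed between libraries in the same direction as their GC content. RPTOR, AKT1S1, DDIT4 and TSC2, at 58.1% to 60.5% GC, were highest in replicate 3 in all 3 of these groups. SESN2, at 59.5% GC, was highest in replicate 3 in both knockdown groups and lowest in long-term nontarget. RICTOR holds 36.5% GC and was lowest in replicate 3 in all 3. For several regulators, results are therefore also given with a GC correction or without the 4 libraries numbered 3.

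Compared per length, as CPM per kilobase of annotated exon, the short-term nontarget cells held most DDIT4 (31.6 ± 5.56, SD, n = 3), followed by AKT1S1 (16.4 ± 1.87), SESN2 (10.3 ± 0.772) and DEPTOR (8.09 ± 0.679). MTOR followed at 6.35 ± 1.15, and its libraries overlapped those of DEPTOR. RPTOR, at 4.09 ± 0.217, lay above all libraries of RICTOR (1.70 ± 0.198), TSC1 (1.68 ± 0.18), TSC2 (1.58 ± 0.0757) and SESN1 (1.37 ± 0.247), and each neighbouring pair among these 4 overlapped. The order of the other regulators changed little between groups, while DEPTOR moved through it. DEPTOR stood level with AKT1S1 in long-term nontarget cells (18.3 ± 1.58 against 18.5 ± 3.89, ranges overlapping) and last in long-term knockdown cells, at 1.22 ± 0.373, where its libraries overlapped those of TSC2. These lengths merge all annotated forms of a gene, which puts TSC1 and TSC2 at 17600 and 19626 bases and lowers their levels on this scale.

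**Figure D1:**
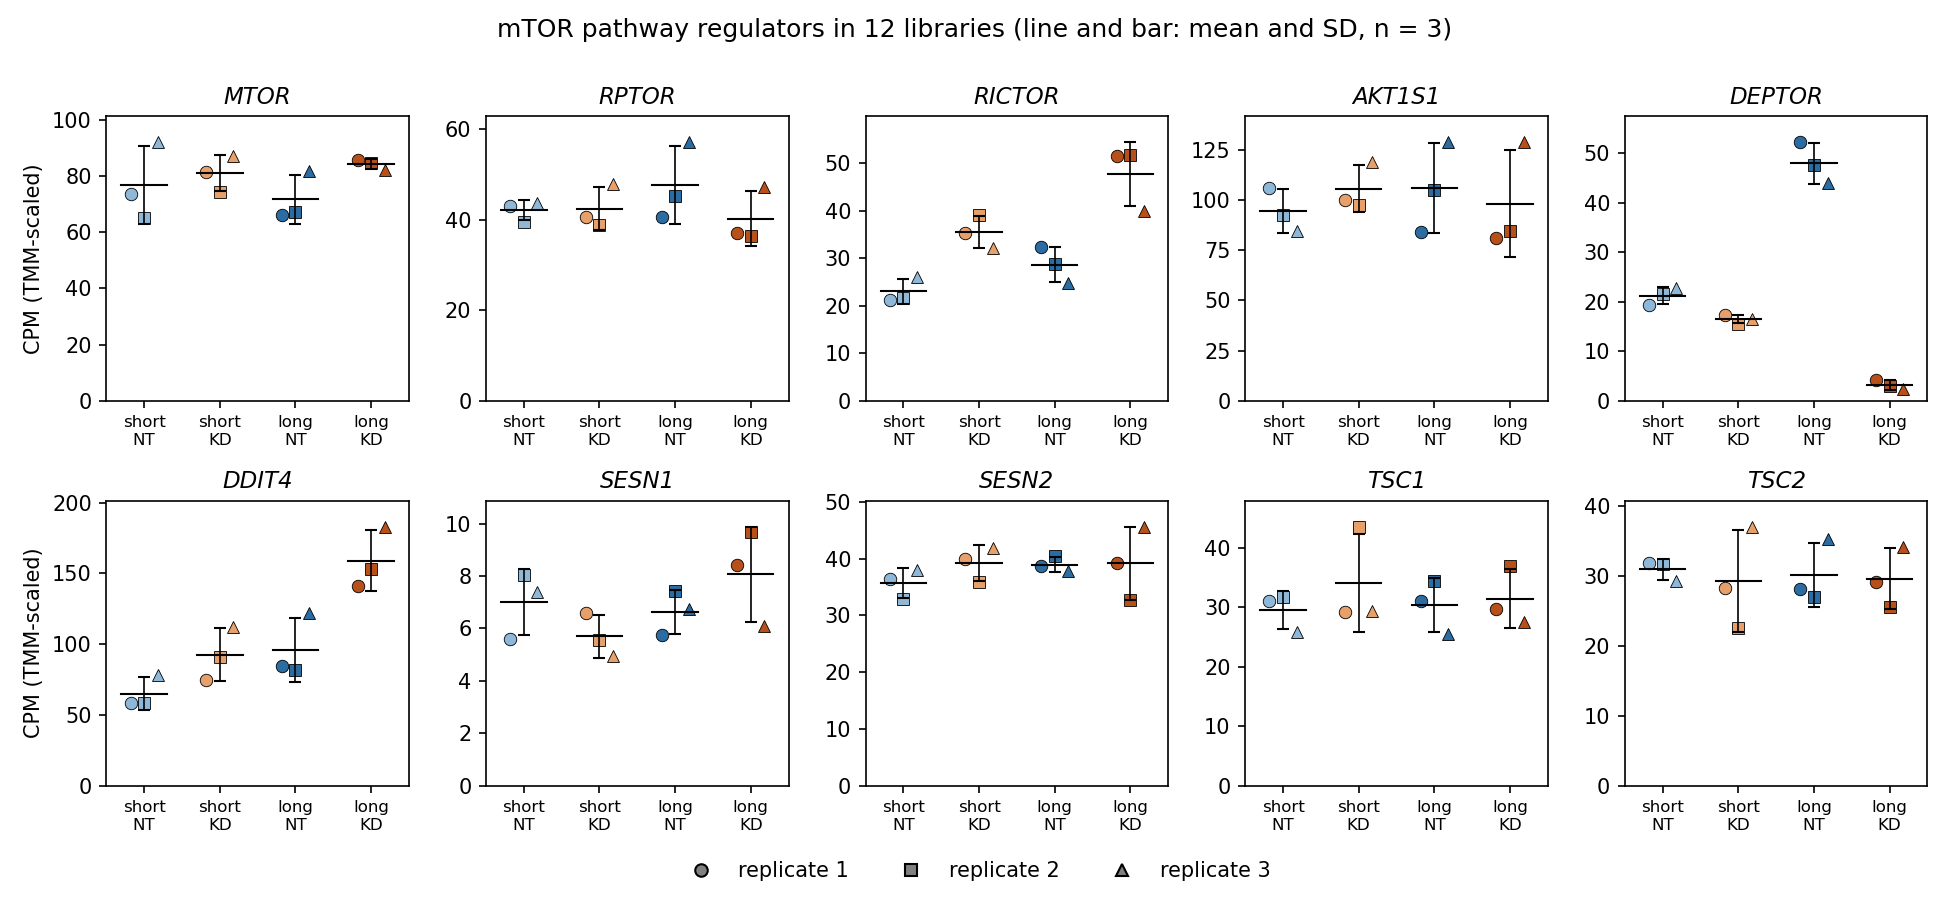
Level of each of the 10 regulators in the 12 libraries, in TMM-scaled CPM on axes that start at 0. Symbols give replicates 1, 2 and 3, the line and bar the mean and SD of 3 libraries; NT is nontarget and KD is FLCN knockdown. DEPTOR spans 44 to 52.3 CPM in long-term nontarget and 2.37 to 4.28 CPM in long-term knockdown libraries, and the triangles of DDIT4 (replicate 3) are the highest in every group.

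After short-term knockdown 1 of the 10 regulators passed the quasi-likelihood test of edgeR (Benjamini-Hochberg adjusted p below 0.05), where 10.3% of all 13959 tested genes did (5.62% higher and 4.71% lower). That gene was RICTOR, which rose. After long-term knockdown 3 of 10 passed, where 29.5% of all genes did (13.7% higher and 15.8% lower): RICTOR and DDIT4 rose and DEPTOR fell. The share of regulators that changed was therefore close to that of genes in general in both comparisons. The median log2 fold change of the 10 was 0.105 short-term and 0.03 long-term, beside −6.86e-05 and 0.000951 over all genes. Groups did not overlap for 2 of 10 regulators short-term, where 30.2% of all genes did not, and for 4 of 10 long-term, where 39.6% did not. MTOR, RPTOR, AKT1S1, SESN1, SESN2, TSC1 and TSC2 did not pass in either.

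**Figure D2:**
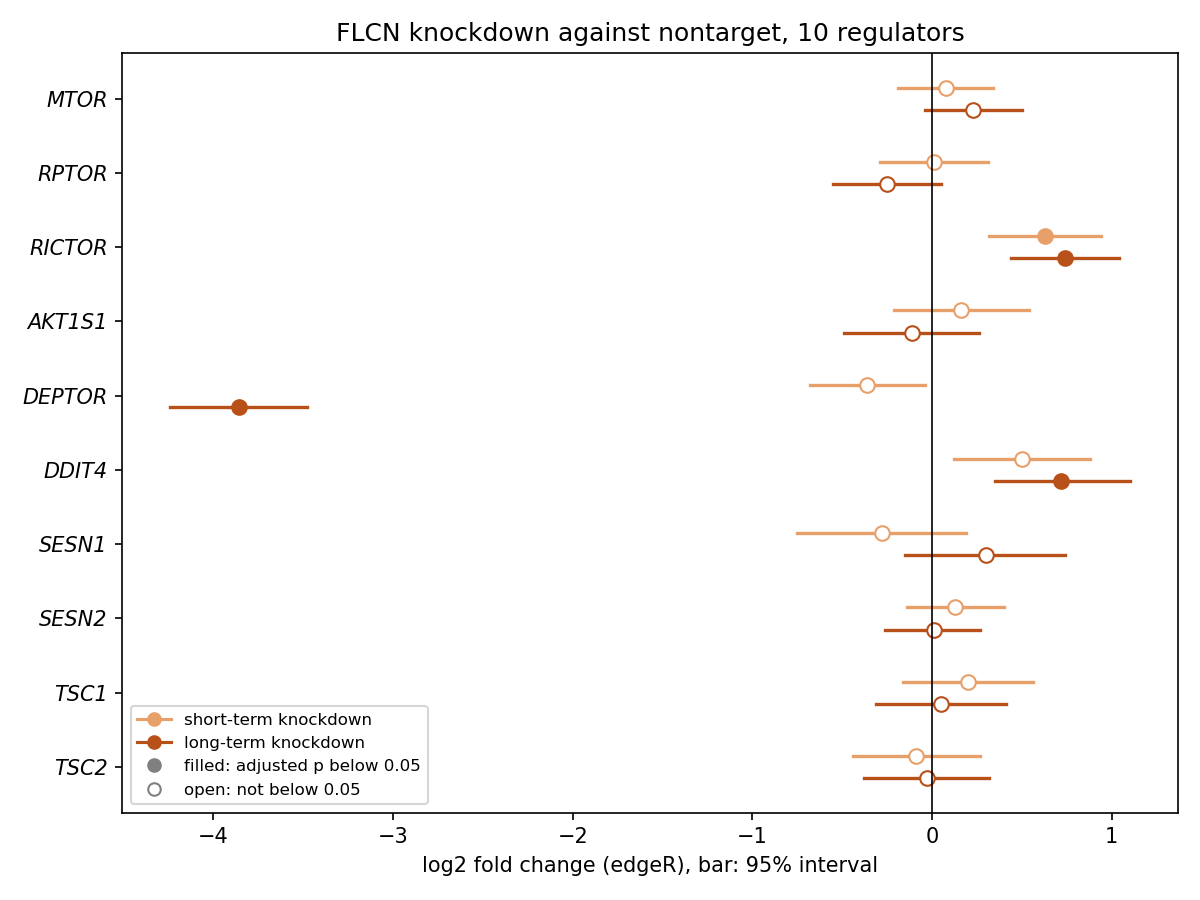
Log2 fold change of knockdown against nontarget cells for the 10 regulators, from edgeR, with 95% intervals; pale points are the short-term and dark points the long-term comparison (3 against 3 libraries each), and filled points have an adjusted p below 0.05. RICTOR lies at 0.63 and 0.74, DDIT4 at 0.50 and 0.72, and DEPTOR at −0.36 and −3.86, while the intervals of the other 7 genes span 0.

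RICTOR and DDIT4 were the regulators that rose with FLCN knockdown, and their promoter sequences are shown with that of TSC2, a brake that did not pass the test, to set out which short motifs each holds. The letters are from RefSeq on GRCh38.p14, the 250 bases before the start site, and capitals mark CACGTG (the E-box core that TFE3 and TFEB bind), ACGTG (the core of the site of HIF-1, the hypoxia-inducible factor, also contained in CACGTG) or TGATGNAA (the composite C/EBP-ATF site that ATF4 uses), searched on both strands.
RICTOR, chr5:39074400-39074649, minus strand: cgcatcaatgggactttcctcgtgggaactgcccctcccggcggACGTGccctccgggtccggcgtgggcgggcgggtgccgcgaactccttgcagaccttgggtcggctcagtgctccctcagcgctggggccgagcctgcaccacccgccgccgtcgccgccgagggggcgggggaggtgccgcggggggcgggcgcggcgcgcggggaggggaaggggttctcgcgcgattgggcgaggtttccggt
DDIT4, chr10:72273674-72273923, plus strand: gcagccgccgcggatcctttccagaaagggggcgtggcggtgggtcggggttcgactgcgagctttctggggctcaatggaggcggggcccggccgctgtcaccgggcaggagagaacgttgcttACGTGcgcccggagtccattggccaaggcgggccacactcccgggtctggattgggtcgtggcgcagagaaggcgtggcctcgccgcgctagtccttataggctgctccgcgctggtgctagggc
TSC2, chr16:2047735-2047984, plus strand: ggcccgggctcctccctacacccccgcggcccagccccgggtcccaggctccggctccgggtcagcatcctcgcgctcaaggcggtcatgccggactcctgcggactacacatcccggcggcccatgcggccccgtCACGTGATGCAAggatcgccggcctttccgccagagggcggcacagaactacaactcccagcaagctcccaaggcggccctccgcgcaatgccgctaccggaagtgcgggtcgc

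RICTOR and DDIT4 each held ACGTG once, 206 and 125 bases before the start site, and neither held CACGTG or TGATGNAA. TSC2 held CACGTG 114 bases before 1 of its start sites with TGATGNAA overlapping it from 110 bases. The table gave windows of 300 bases (250 before and 50 after the start) for 8 of the 10 regulators, and not for AKT1S1 and DEPTOR. None of the 3 motifs was found in the windows of MTOR, RPTOR, SESN1, SESN2 and TSC1. Among 35116 such windows of all genes, 7.26% held CACGTG, 21.4% ACGTG and 3.62% TGATGNAA. These are matches of letters and say nothing about which factor was bound in these cells.

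RICTOR, the scaffold that defines mTORC2 and gives it its substrates, was the regulator that passed the test in both knockdown comparisons. It lies on chromosome 5 (GRCh38, 38937919 to 39074408, minus strand). RICTOR was read at 21.3, 21.6 and 26.1 CPM in short-term nontarget and 35.2, 39 and 32.2 CPM in short-term knockdown libraries. The groups did not overlap, and RICTOR was 1.55-fold higher with knockdown (log2 fold change 0.63, SE 0.146, 95% interval 0.32 to 0.94, edgeR adjusted p = 0.00926). In the long-term groups it was read at 32.3, 28.8 and 24.8 CPM without and 51.4, 51.8 and 39.9 CPM with knockdown. These again did not overlap and gave a 1.67-fold rise (0.74, SE 0.141, adjusted p = 0.000646). The rise did not detectably differ between the culture times (difference of log2 fold changes 0.11, 95% interval −0.32 to 0.54, adjusted p = 0.788).

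The short-term call of RICTOR was lost without short-term nontarget replicate 1 (adjusted p = 0.0581) or replicate 2 (0.0519). The GC correction gave it a log2 fold change of 0.73 with an SE of 0.105 (adjusted p = 3.01e-05), and leaving out the libraries numbered 3 gave 0.79 (0.000128). Of the 40 tested genes nearest to RICTOR, over 11.4 Mb, 6 rose and 2 fell short-term, and 14 rose and 4 fell long-term, while the others did not pass. They had a median log2 fold change of 0.27 short-term and 0.228 long-term, beside 0.107 and 0.131 for the 605 tested genes of the chromosome. RICTOR exceeded these medians in both comparisons, and the part of the surrounding region in its rise was not tested. OSMR, a cytokine receptor gene on the opposite strand with an exon that overlaps RICTOR, had log2 fold changes of 0.28 (adjusted p = 0.0917) and 0.42 (0.00373). Whether reads were counted by strand is not given in the sources used here, so reads in the shared exon cannot be assigned to either gene.

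MTOR, the kinase itself, did not pass the test in any comparison. It was read at 73.5, 65 and 92.2 CPM in short-term nontarget and 81.5, 74.4 and 87.2 CPM in short-term knockdown libraries, which overlap (log2 fold change 0.08, SE 0.127, 95% interval −0.19 to 0.34). In the long-term groups it was read at 66.2, 67.2 and 81.8 CPM without and 85.7, 84.7 and 82.3 CPM with knockdown. The long-term groups did not overlap, the gap between the highest nontarget and the lowest knockdown library being small, and the difference missed the threshold (0.23, SE 0.126, 95% interval −0.04 to 0.50, edgeR adjusted p = 0.189). Without the libraries numbered 3 it passed (0.36, SE 0.101, adjusted p = 0.00708), as it did with the GC correction and the replicate number together (0.23, adjusted p = 0.027). RPTOR, the scaffold that recruits substrates to mTORC1, ranged from 36.5 to 57.2 CPM over the 12 libraries, its highest in long-term nontarget replicate 3. Its log2 fold change was 0.01 (95% interval −0.29 to 0.31) short-term and −0.25 (−0.55 to 0.05, adjusted p = 0.208) long-term, and with the GC correction and the replicate number together the long-term value passed (−0.22, adjusted p = 0.031).

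DEPTOR and AKT1S1 encode the inhibitors that bind inside the complexes. DEPTOR, which binds mTOR in both complexes and restrains its kinase activity, showed the largest changes among the 10 regulators in every comparison except short-term knockdown. It lies on chromosome 8 (GRCh38, 119873717 to 120050913, plus strand). DEPTOR was read at 19.3, 21.6 and 22.8 CPM in short-term nontarget and 17.3, 15.6 and 16.6 CPM in short-term knockdown libraries. All knockdown libraries lay below all nontarget libraries, by a margin that missed the threshold over all genes (log2 fold change −0.36, SE 0.152, 95% interval −0.68 to −0.04, edgeR adjusted p = 0.163). In the long-term groups DEPTOR was read at 52.3, 47.7 and 44 CPM without and 4.28, 2.93 and 2.37 CPM with knockdown. The groups lay far apart, and DEPTOR fell by 3.86 on the log2 scale (SE 0.179, 95% interval −4.24 to −3.48, adjusted p = 9.85e-11), which is a change of the mean CPM by −93.3%. The long-term effect exceeded the short-term effect by −3.50 on the log2 scale (SE 0.238, adjusted p = 2.23e-08), the only difference between the culture times among the 10 regulators that passed, where 13.4% of all genes passed (4.98% higher and 8.43% lower). The marker CDH6 given above was highest in the group in which DEPTOR was lowest, the fibroblast marker PDGFRB had its lowest and highest means in the same groups as DEPTOR, and the other fibroblast markers did not follow this order. Their part in the result was not tested.

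Both groups contributed to this gap over time. In nontarget cells DEPTOR rose by 1.18 on the log2 scale with long culture (SE 0.142, edgeR adjusted p = 4.66e-05). In knockdown cells it fell by 2.33 (SE 0.190, adjusted p = 8.76e-08). Leaving out any 1 library kept the long-term fall between −4.16 and −3.70, and the GC correction gave −3.89. Its 40 nearest tested genes, over 9.68 Mb, had medians of −0.11 for long-term knockdown, 0.0097 for long culture of nontarget cells and −0.0228 for long culture of knockdown cells. Of these 40 genes, 6 rose and 10 fell, none rose and 3 fell, and 3 rose and 10 fell in these comparisons. The opposite-strand gene AP005717.1, which overlaps a DEPTOR exon and did not pass the filter on low counts, had 12, 15, 39 and 1 counts summed over the 3 libraries of short-term nontarget, short-term knockdown, long-term nontarget and long-term knockdown. The genes most like DEPTOR over the 12 libraries, by Pearson's r of log2 CPM, were EML1 (r = 0.982), AC105411.1 (0.982) and CCNYL1 (0.978). These 12 points fall into 4 groups, so the correlation describes group differences and carries no p.

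AKT1S1, known as PRAS40, blocks mTORC1 until AKT phosphorylates it. Its level ranged from 80.9 to 129 CPM, and the groups overlapped in all comparisons. The log2 fold change was 0.16 short-term (95% interval −0.21 to 0.54) and −0.11 long-term (−0.49 to 0.26). Its exons overlap TBC1D17, so its counts are uncertain where reads could not be assigned.

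**Figure D3:**
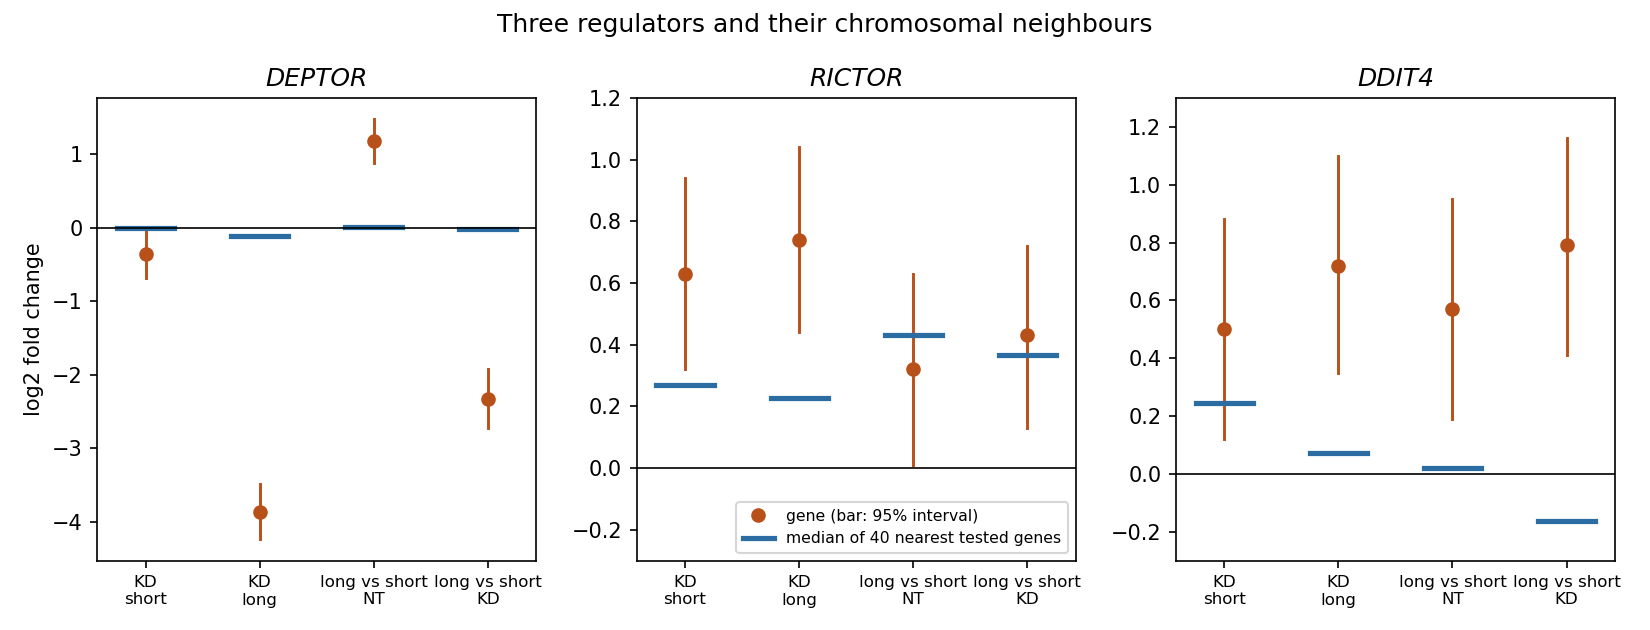
Log2 fold change of DEPTOR, RICTOR and DDIT4 (points, with 95% intervals, from edgeR) and the median of the 40 nearest tested genes (blue lines) in the comparisons of knockdown (KD) with nontarget (NT) and of long-term with short-term culture. The blue lines of DEPTOR stay between −0.11 and 0.0097, those of RICTOR lie between 0.228 and 0.433, and RICTOR lies below its line only in long culture of nontarget cells.

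DDIT4, SESN1 and SESN2 are stress brakes. DDIT4, known as REDD1, is induced by hypoxia, glucocorticoids and loss of amino acids, and restrains mTORC1 through the TSC complex. It lies on chromosome 10 (GRCh38, 72273920 to 72276036, plus strand). DDIT4 was read at 58.4, 58.5 and 78.2 CPM in short-term nontarget and 74.3, 91.2 and 112 CPM in short-term knockdown libraries. These overlap by the lowest knockdown and the highest nontarget library, and the difference missed the threshold (log2 fold change 0.50, SE 0.179, 95% interval 0.12 to 0.88, edgeR adjusted p = 0.0917). In the long-term groups DDIT4 was read at 84.3, 81.8 and 122 CPM without and 141, 153 and 183 CPM with knockdown. The groups did not overlap, and DDIT4 was 1.65-fold higher (0.72, SE 0.175, adjusted p = 0.00483). The effects at the 2 culture times did not detectably differ (difference 0.22, 95% interval −0.31 to 0.75, adjusted p = 0.635).

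Replicate 3 was the highest DDIT4 library in every group. The short-term difference passed with the GC correction (0.42, adjusted p = 0.0363), without the libraries numbered 3 (0.50, adjusted p = 0.00185) and without short-term knockdown replicate 1 (0.64, adjusted p = 0.0469). The antisense gene DDIT4-AS1, whose exon overlaps that of DDIT4, was read at a mean of 24.6 ± 3.61, 32.8 ± 5.00, 38.1 ± 8.13 and 60.3 ± 5.55 CPM (SD, n = 3) in short-term nontarget, short-term knockdown, long-term nontarget and long-term knockdown. Its log2 fold change was 0.41 short-term (adjusted p = 0.139) and 0.66 long-term (0.00374). With strand not given, reads of the pair cannot be told apart.

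The sestrins bind GATOR2 and hold mTORC1 off when leucine is scarce. SESN1 had the lowest mean CPM of the 10 regulators in every group but long-term knockdown, where DEPTOR was lower. It was read at 5.6, 8.05 and 7.38 CPM in short-term nontarget and 6.58, 5.56 and 4.96 CPM in short-term knockdown libraries. The long-term values were 5.76, 7.43 and 6.73 CPM in long-term nontarget and 8.44, 9.68 and 6.11 CPM in long-term knockdown libraries. All pairs of groups overlapped. The log2 fold change was −0.28 short-term (95% interval −0.75 to 0.19) and 0.30 long-term (−0.15 to 0.74), the widest intervals among the 10. SESN2, a sestrin that binds leucine, ranged from 32.7 to 45.6 CPM. Its log2 fold change was 0.13 (−0.14 to 0.40) short-term and 0.01 (−0.26 to 0.27) long-term.

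TSC1 and TSC2, the tumour suppressors of tuberous sclerosis, form the complex that switches RHEB off. TSC1, the stabilizing subunit, ranged from 25.6 to 43.6 CPM, with its highest value in short-term knockdown replicate 2. TSC2, the subunit with GTPase-activating function, ranged from 22.5 to 37 CPM, both extremes lying in short-term knockdown libraries. Groups overlapped in every comparison for both genes. The log2 fold changes were 0.20 (95% interval −0.16 to 0.56) and 0.05 (−0.31 to 0.41) for TSC1 in short-term and long-term knockdown, and −0.09 (−0.44 to 0.27) and −0.03 (−0.38 to 0.32) for TSC2.

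Long-term and short-term cells were compared within each shRNA, to give the change with passages in nontarget and in knockdown cells. In nontarget cells 1 of 10 regulators passed the test, DEPTOR, which rose, where 7.55% of all genes passed (3.17% higher and 4.38% lower). In knockdown cells 3 of 10 passed, where 26.6% of all genes did (11.5% higher and 15.2% lower): RICTOR and DDIT4 rose and DEPTOR fell. DEPTOR thus passed in opposite directions. The median log2 fold change of the 10 was 0.145 and 0.01, beside 0.0105 and 0.0126 over all genes. Groups did not overlap for 2 regulators in nontarget and 3 in knockdown cells, where 25.7% and 38.1% of all genes did not.

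DDIT4 had a log2 fold change of 0.57 with long culture of nontarget cells (SE 0.179, edgeR adjusted p = 0.0685) and rose by 0.79 with that of knockdown cells (SE 0.176, adjusted p = 0.00328). All long-term libraries exceeded all short-term libraries in both. The first value passed with the GC correction (0.52, adjusted p = 0.0134), with DESeq2 (0.57, 0.0347) and without short-term nontarget replicate 3 (0.72, 0.0391). RICTOR had 0.32 in nontarget cells (adjusted p = 0.24), which passed with the GC correction (0.35, 0.0299) and without the libraries numbered 3 (0.51, 0.0137), and it rose by 0.43 in knockdown cells (SE 0.139, adjusted p = 0.0302). The call in knockdown cells was lost without short-term knockdown replicate 1 (adjusted p = 0.0814) or 3 (0.0926), or long-term knockdown replicate 1 (0.126) or 2 (0.122), and with only the 2 groups in the fit (0.0571). It was kept with the GC correction (0.37, adjusted p = 0.00446). The 40 genes nearest to RICTOR had medians of 0.433 and 0.366 in these comparisons, beside its own 0.32 and 0.43. SESN1 had a log2 fold change of 0.50 in knockdown cells (adjusted p = 0.103), which passed without long-term knockdown replicate 3 (0.65, adjusted p = 0.0358). MTOR, RPTOR, AKT1S1, SESN2, TSC1 and TSC2 had values between −0.12 and 0.18 in both.

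**Figure D4:**
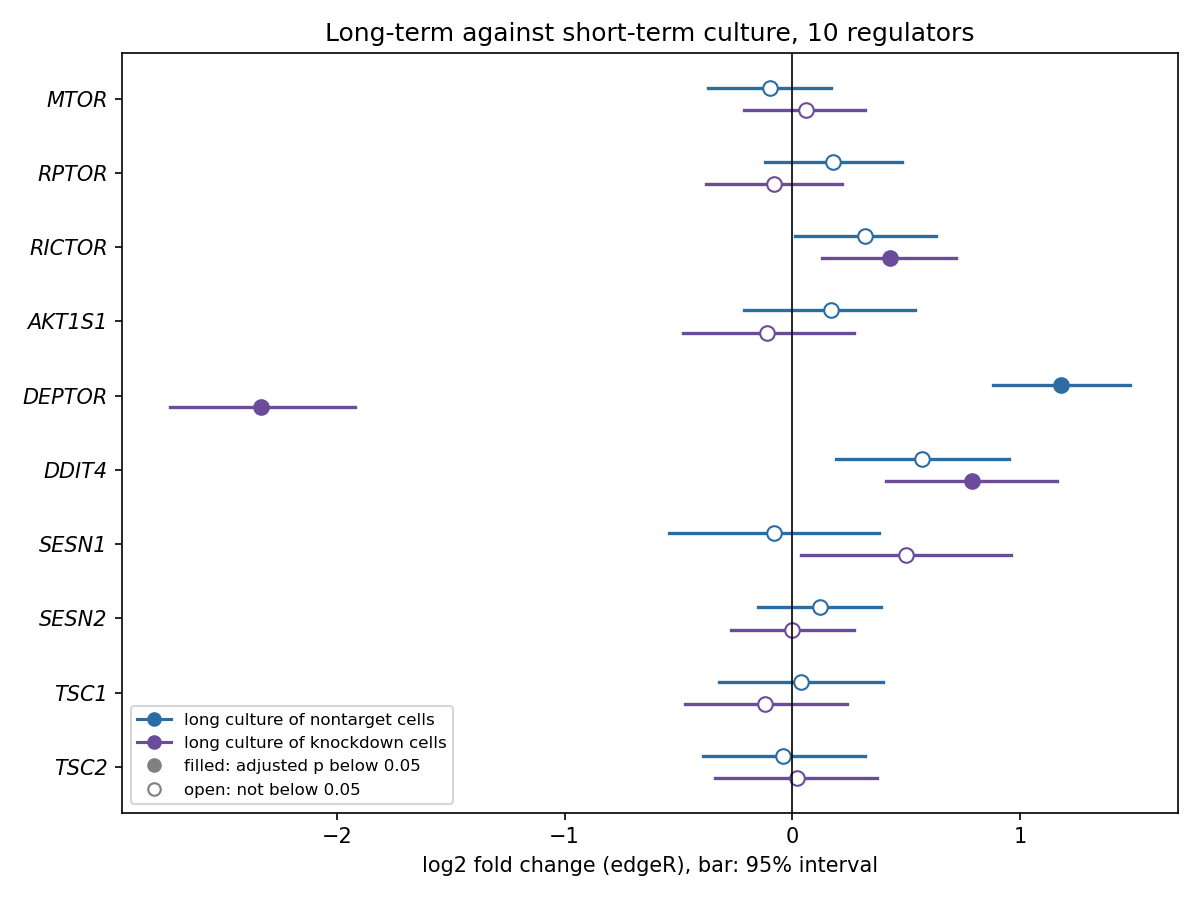
Log2 fold change of long-term against short-term culture for the 10 regulators, from edgeR, with 95% intervals; blue points are nontarget and purple points knockdown cells (3 against 3 libraries each), and filled points have an adjusted p below 0.05. DEPTOR lies at 1.18 in nontarget and −2.33 in knockdown cells, on opposite sides of 0.

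Other genes of the pathway were taken from 6 lists (mTOR complex partners, the TSC and RHEB arm, stress brakes, amino acid sensing, growth factor input and outputs), with 55 of 59 listed genes tested. DDIT4L, CASTOR1, PIK3R2 and EIF4EBP3 did not pass the filter. After short-term knockdown 3 of the 55 rose and 1 fell, or 7.27%, and after long-term knockdown 10 rose and 5 fell, or 27.3%, both close to the share of all genes. The medians of the 55 were 0.03 and 0.04.

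The third sestrin, SESN3, was the gene of the 6 lists that fell short-term, from 2.83 ± 0.410 to 0.743 ± 0.151 CPM (SD, n = 3; log2 fold change −1.91, SE 0.366, edgeR adjusted p = 0.00242), on 57 and 15 counts summed over the libraries. Its long-term value was −0.63 (adjusted p = 0.232), and the difference between the culture times missed the threshold (1.28, adjusted p = 0.135). Genes that rose short-term included IRS2, which links insulin receptors to PI3K, and SGK1, a kinase that mTORC2 phosphorylates. SGK1 rose from 54.3 ± 5.63 to 106 ± 9.40 CPM short-term (0.96, adjusted p = 4.24e-05) and from 80.3 ± 8.43 to 155 ± 13.4 CPM long-term (0.95, adjusted p = 6.02e-06). IRS2 rose by 1.03 and 1.04, the first value not passing when no filter on low counts was used (adjusted p = 0.082).

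Among 20 genes of amino acid sensing, none passed short-term and 3 rose long-term, or 15%, where 13.7% of all genes rose: DEPDC5, a subunit of GATOR1, which switches the Rag GTPases off (0.75, adjusted p = 0.00634), and LAMTOR2 and LAMTOR4, subunits of the Ragulator that anchors them (0.67, 0.000512, and 0.33, 0.0215). The call of LAMTOR4 was lost without long-term nontarget replicate 1 (adjusted p = 0.0826) or long-term knockdown replicate 3 (0.0623), with no filter on low counts (0.0672) and with only the 2 groups in the fit (0.0655). Among 7 complex partners 2 passed long-term, or 28.6%, where 29.5% of all genes did. PRR5, a subunit of mTORC2, fell by 0.75 (adjusted p = 0.024) and TTI1, a chaperone for mTOR, rose by 0.27 (0.0362). Both calls were lost without long-term nontarget replicate 3 (PRR5, adjusted p = 0.14; TTI1, 0.0747) or long-term knockdown replicate 1 (0.129 and 0.122) or 2 (0.0934 and 0.118), and that of TTI1 without long-term nontarget replicate 2 (0.157). With only the 2 groups in the fit both were lost (0.0583 and 0.0995), and that of TTI1 with no filter (0.133). Among 12 genes of growth factor input 2 rose and 2 fell long-term, or 33.3%, where 29.5% of all genes passed. IRS2, given above, was among those that rose. The adaptor IRS1 fell by 0.74 (adjusted p = 0.0172) and the AKT phosphatase PHLPP1 by 0.53 (0.00373). The call of IRS1 was lost without long-term nontarget replicate 3 (adjusted p = 0.0782) or long-term knockdown replicate 1 (0.0773) or 2 (0.071). Among 12 outputs, of which 50% passed long-term where 29.5% of all genes did, LPIN1, RPS6 and RPS6KB1 rose by 0.63, 0.57 and 0.41, and EIF4EBP2 and GRB10 fell by 0.35 and 0.40 (adjusted p = 0.00191 to 0.0289). Those of LPIN1 and RPS6 held without any 1 library. The call of RPS6KB1 was lost without long-term nontarget replicate 2 (adjusted p = 0.133) or 3 (0.0816) or long-term knockdown replicate 1 (0.0992) or 2 (0.108) and with only the 2 groups in the fit (0.0606), that of GRB10 without long-term nontarget replicate 2 (0.0956) or long-term knockdown replicate 1 (0.0757) or 2 (0.0988), and that of EIF4EBP2 without long-term nontarget replicate 1 (0.0519). None of the 3 genes of the TSC and RHEB arm passed. The genes named from counts of 5 or fewer were chosen after their values were seen.

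Transcription factors known to induce the stress brakes were followed through lists of their other targets: p53, which induces SESN1 and SESN2, ATF4, which induces SESN2 and DDIT4, and HIF-1, which induces DDIT4. Of 9 tested HIF-1 targets 5 rose and none fell short-term (median 0.49), and 2 rose and 4 fell long-term (median −0.39). These are 55.6% and 66.7% of the list, beside 10.3% and 29.5% of all genes. NDRG1 went from 30.4 ± 2.37 to 76.4 ± 6.05 CPM short-term (log2 fold change 1.33, edgeR adjusted p = 9.3e-05) and from 63.8 ± 18.5 to 39.0 ± 6.86 CPM long-term (−0.72, adjusted p = 0.00401). KDM3A, a histone demethylase, rose at both times (0.76 and 0.71). ADM, which encodes adrenomedullin, had 0.64 short-term (adjusted p = 0.0296, lost without any 1 of the 3 short-term nontarget libraries or short-term knockdown replicate 3, up to 0.143) and fell by 3.88 long-term (adjusted p = 6.38e-09). EGLN3, a prolyl hydroxylase that marks HIF for degradation, had 1.03 short-term (adjusted p = 0.0465), a call lost when any 1 library but short-term knockdown replicate 3 was left out (up to 0.181, without short-term nontarget replicate 3).

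Of 13 p53 targets 1 fell short-term, and 1 rose and 4 fell long-term, or 7.69% and 38.5%, beside 10.3% and 29.5% of all genes. TP53INP1, which promotes autophagy and cell death, fell by 1.09 short-term (edgeR adjusted p = 0.00497) and by 1.69 long-term (3.23e-05) on the log2 scale. CDKN1A, the cell cycle inhibitor p21, fell long-term (−1.56, adjusted p = 9.8e-06) and not short-term (−0.02, adjusted p = 0.965). SESN1 and SESN2 did not pass in either. Of 9 tested ATF4 targets 2 rose short-term, and 2 rose and 3 fell long-term, or 22.2% and 55.6% beside the same shares of all genes. VLDLR, a lipoprotein receptor, rose at both times (0.43, adjusted p = 0.0122, and 0.91, adjusted p = 3.47e-06). Its short-term call was lost without short-term nontarget replicate 1 (adjusted p = 0.0768) or short-term knockdown replicate 2 (0.0787).

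**Figure D5:**
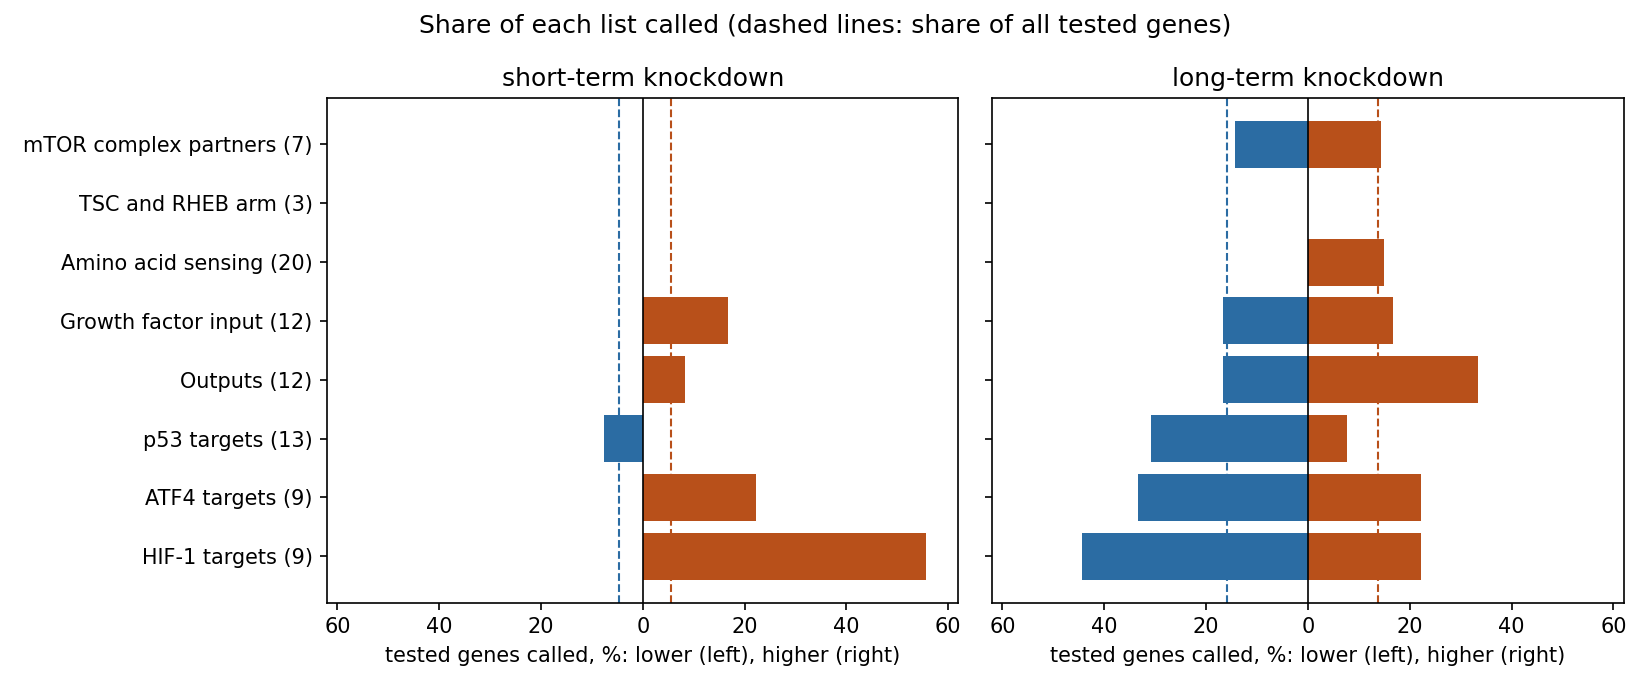
Share of the tested genes of each list (number in brackets) that rose (right, orange) or fell (left, blue) at an adjusted p below 0.05 after short-term and long-term knockdown; dashed lines give the share of all 13959 tested genes. HIF-1 targets reach 5 of 9 higher short-term, and amino acid sensing genes stay at 0 of 20 short-term and 3 of 20 higher long-term.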

How the data were processed

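According to the study's methods and the labels, poly(A) RNA was made into TruSeq v2 libraries, mapped with STAR and counted with featureCounts on GRCh38; versions, annotation and strand setting are not given in the sources used here. The deposited counts per gene were used. The authors' normalized values (unit score) equal count divided by 1 factor per library in 100% of cases within 1, and served as that check only. Gene IDs were matched to GENCODE release 29: 55661 with the same version, 2364 with another, 263 not; GENCODE coordinates are printed for the first kind only, and promoter coordinates are those of RefSeq. In R 4.3.3, edgeR 4.0.16 (filterByExpr, 13959 genes; TMM; robust quasi-likelihood fit of all 12 libraries; prior count 0.125) tested 4 pairwise comparisons and their interaction, two-sided, with Benjamini-Hochberg adjustment over all genes; SE is the log2 fold change over the square root of F. Log2 CPM used a prior count of 2. The counting of reads limits precision at 5825779 to 8991051 counts per library.

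Named besides the 10 regulators were up to 3 listed genes with the largest rise and 3 with the largest fall among those that passed in each knockdown comparison, those that passed in both with an absolute log2 fold change of at least 0.58, and the 3 genes most correlated with a regulator that changed by at least 1 on the log2 scale. A further 15 listed genes were named after their values were seen, with the same alternatives. Some genes of the lists are not reported here by name. The regulators and lists were chosen with earlier results of these data known. Same-numbered libraries deviated together in long-term knockdown (r = 0.284, 0.123 and 0.458) and long culture of knockdown cells (0.223, 0.292 and 0.455). In the other comparisons the same-number r was at most 0.111, and the labels give no pairing. The groups of the first comparisons are those in which replicate 3 was shifted with GC content. A pairing of the samples and a shared GC shift therefore cannot be told apart. The GC correction was an offset per library, a lowess curve (span 0.3) of deviation on transcript GC content, available for 99.8% of tested genes. It, its combination with the block and leaving out replicate 3 were chosen after seeing the data. On simulated counts with 200 changed genes, edgeR recovered 41.5% of 1.5-fold changes in short-term and 32% in long-term knockdown, and 84.5% and 85.5% of 2-fold changes (13959 genes each).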

Additional observations from a re-analysis of the deposited data

Results flagged for a closer look

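The effect of knockdown differed between long-term and short-term culture, by the interaction term of edgeR over all genes, for 1 of the 10 regulators and 8 other genes named here. DEPTOR differed by −3.50 on the log2 scale (SE 0.238, adjusted p = 2.23e-08). All 3 long-term and all 3 short-term knockdown libraries lay below their nontarget libraries, but the short-term difference did not pass (−0.36, adjusted p = 0.163). A larger effect long-term and an effect present only long-term therefore cannot be told apart. ADM differed by −4.53 (SE 0.320, adjusted p = 3.42e-08), NDRG1 by −2.05 (SE 0.244, adjusted p = 1.75e-05) and CDKN1A by −1.54 (SE 0.259, adjusted p = 0.000594). NDRG1 passed in opposite directions at the 2 culture times. VLDLR differed by 0.48 (SE 0.146, adjusted p = 0.0353), and this call was lost without any 1 of 8 of the 12 libraries (replicates 2 and 3 of both nontarget groups, 1 and 3 of short-term knockdown, and 1 and 2 of long-term knockdown), with an adjusted p of up to 0.106, and with no filter on low counts (0.0632). IRS1 differed by −1.19 (SE 0.301, adjusted p = 0.0148), a call that held without any 1 library. GRB10 differed by −0.67 (SE 0.178, adjusted p = 0.0166), lost without short-term nontarget replicate 1 (0.0584), and PHLPP1 by −0.64 (SE 0.176, adjusted p = 0.0203), lost without short-term nontarget replicate 2 (0.0506), long-term nontarget replicate 3 (0.0504) or all libraries numbered 3 (0.116). TTI1 differed by 0.43 (SE 0.131, adjusted p = 0.0361), lost with no filter (0.115) and without any 1 of 9 of the 12 libraries (all but short-term knockdown replicate 3, long-term nontarget replicate 1 and long-term knockdown replicate 3), up to 0.101.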

How the results depend on the processing

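None of the calls of the regulators and of the 25 pathway genes rerun reversed under any alternative. The calls of DEPTOR held in each, and RICTOR and DDIT4 in long-term knockdown likewise. The count of regulators that passed went from 1 to 2 in short-term knockdown with no filter, the replicate block (DDIT4, adjusted p = 0.000628), only the 2 groups compared, the GC correction, or the GC correction with the block. DDIT4 was the one added. In long culture of nontarget cells it went from 1 to 2 with DESeq2, no filter, the replicate block or only the 2 groups, and to 3 with the GC correction, without or with the block. With only the 2 groups it went from 3 to 2 in long culture of knockdown cells, RICTOR being lost. With the GC correction and the block it was 5 in long-term knockdown (from 3) and 2 in the interaction (from 1; DDIT4, 0.32, adjusted p = 0.0483).

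Over all genes, short-term knockdown gave 2359 calls with the replicate block, 2360 with the GC correction and 3236 with both, against 1441. Long culture of nontarget cells gave 666 at a mean of at least 10 CPM, 1786 with the block, 1924 with the GC correction and 2738 with both, against 1054. The interaction gave 2879, 3005 and 3956, against 1872. With both, long-term knockdown gave 6215 against 4119, and long culture of knockdown cells 5822 against 3719. The block changed no call of a regulator in these last 2 comparisons, where same-numbered libraries deviated together. In short-term knockdown and long culture of nontarget cells they hardly did (same-number r = 0.0172, 0.111 and 0.054, and −0.034, 0.0767 and 0.025). Not every sample correlated best with its own number there, nor in long-term knockdown (long-term knockdown replicate 2, r = 0.231 with nontarget number 1 and 0.123 with its own).

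Leaving out libraries (1 at a time, or all numbered 3) gave 874 to 2000 genes and 0 to 2 regulators in short-term knockdown, 3295 to 4761 and 3 to 4 in long-term knockdown, 581 to 1586 and 1 to 3 in long culture of nontarget cells, 2829 to 4422 and 2 to 4 in that of knockdown cells, and 1463 to 2341 and 1 in the interaction. Except where fewer genes or samples entered, the cause was not tested. In the simulation 1.5-fold changes were recovered in 41.5% of cases short-term and 2% for the interaction, and 2-fold changes in 84.5% and 57.5%, so a regulator that did not pass is not shown to be unchanged.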

Other observations

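Long culture of the knockdown cells, against short-term knockdown cells, changed 8 genes of the 6 pathway lists upward and 10 downward of 55 tested, or 32.7%, where 26.6% of all genes passed edgeR's test. The kinase AKT1 fell by 0.68 on the log2 scale (adjusted p = 0.000644). IRS1 fell by 1.4 (adjusted p = 0.000191), and EIF4EBP2, which holds back cap-dependent translation until mTORC1 phosphorylates it, fell by 0.61 (0.000135). PRR5 and PRR5L, alternative subunits of mTORC2, fell by 0.76 (adjusted p = 0.0271) and 0.51 (0.0228). Both calls were lost without short-term knockdown replicate 1 (0.0997 and 0.0582) or long-term knockdown replicate 1 (0.136 and 0.0796) or 2 (0.102 and 0.0891), and that of PRR5L without short-term knockdown replicate 3 (0.0746). PHLPP2, a phosphatase of AKT, rose by 0.54 (0.00912). The calls of AKT1, IRS1, EIF4EBP2 and PHLPP2 held without any 1 library.

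In nontarget cells, long culture changed 2 of the 55 genes, or 3.64%, where 7.55% of all genes passed. Both rose, SGK1 by 0.57 (edgeR adjusted p = 0.00531). These genes were picked after their values were seen.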
